A study of Mus musculus with 24 samples.

Results

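The transcriptional response of bone marrow-derived dendritic cells (BMDCs) to DMXAA was described across all expressed genes in the libraries labelled WT. These were 3 DMXAA-treated and 3 control libraries, 6 of the 24 in the series, taken by their labels alone, with no measured value used to choose them. The WT-labelled cells came from tamoxifen-treated Tmem173 fl/fl mice without the Lyz2-CreERT2 transgene, so the floxed alleles and the tamoxifen were common to both arms. Bone marrow was cultured with GM-CSF and IL-4, and the treated cells received DMXAA at 40 µM by the series description, while the methods of the study give that figure in µg/mL, so the concentration is uncertain. The time of treatment of the sequenced cells is not given in the sources used here, and the label of the control arm (CT) does not name a vehicle. The labels do not say whether the 3 libraries of an arm came from separate mice, so p-values measure the spread between these libraries, which may be technical.

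DMXAA is a small molecule that binds the mouse form of STING, the endoplasmic reticulum adaptor encoded by Tmem173. Active STING recruits the kinase TBK1, which phosphorylates the transcription factor IRF3, and it also activates NF-kB. IRF3 drives the type I interferon genes, secreted interferon signals back through its receptor and JAK-STAT signalling, and NF-kB drives cytokines and maturation genes. Dendritic cells are known for answering such signals with chemokines, costimulatory ligands, antigen presentation and the IL-12 family of cytokines, which steer T cells.

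Total counts ran from 16897782 to 17962980 per library, and between 10704 and 11373 genes reached 1 FPKM (the deposited read density, scaled by the authors for gene length and library size). Tmem173 itself was present in every library, at 51.6, 28.8 and 35.3 FPKM in the control libraries and 55.3, 34.6 and 35.9 FPKM in the DMXAA libraries, where values are listed in the order of library numbers 1, 2 and 3 here and below. The groups overlapped (log2 fold change 0.09 ± 0.28, adjusted p = 0.845), and the 6 BMDC libraries labelled CRE held 19.7 to 36.8 FPKM. Of 12 dendritic cell markers, 11 reached 1 FPKM in at least 3 libraries, with Itgax, which encodes CD11c, at 286, 303 and 307 FPKM before and 260.3, 299 and 321 FPKM after DMXAA. The exception was Flt3, a cytokine receptor of conventional dendritic cells, at 0.288, 0.107 and 0.478 FPKM before and 0.17, 0.0638 and 0.15 FPKM after DMXAA. The macrophage list was also expressed, with 11 of 12 markers at 1 FPKM in at least 3 libraries. Its summed level was 7190 to 9000 CPM in control and 6400 to 6980 CPM in DMXAA libraries. The dendritic cell list summed to 10700 to 14600 and 8620 to 13300 CPM, so the cultures carried transcripts of both kinds. Marker CPM, here and below, are counts scaled by the total counts of a library alone. The main scaling of the fits below (TMM) had factors of 1.07 to 1.17 in control and 0.85 to 0.91 in DMXAA libraries. Relative to control, marker sums after DMXAA therefore stand lower than they would under TMM. Markers of T, B, NK and erythroid cells summed to at most 15.7 CPM per list in any library. Mast cell or basophil markers, mostly Cpa3 and Gata2, summed to 178 to 455 CPM in control and 86 to 220 CPM in DMXAA libraries, and fibroblast markers, mostly Fn1, to 347 to 655 and 208 to 305 CPM; their part in the falls was not tested. In bulk RNA fewer cells of a type and less RNA per cell cannot be told apart, and this holds for every fall reported here.

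Both libraries numbered 1 stood somewhat apart. Their best correlation with a library of the same treatment and label was 0.9746 for control and 0.968 for DMXAA, against 0.9872 and 0.9791 among the other libraries. These correlations are of log2 CPM on the main scaling (TMM). Control libraries 2 and 3 and DMXAA libraries 2 and 3 were each closer to a CRE-labelled library of the same treatment (r from 0.9911 to 0.9921) than to any library of their own label. The libraries numbered 1 were also closest to a CRE-labelled library, but at 0.9746 for control and 0.9689 for DMXAA, near their best values within the label. Same-numbered control and DMXAA libraries deviated together from their group means (r of 0.645, 0.395 and 0.482), so values are listed by number throughout. Between differently numbered libraries r ran from -0.53 to 0.238, the highest for control library 2 with DMXAA library 3. Deviations within an arm sum to 0, so these values are not independent of each other.

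DMXAA changed the level of 3904 of 12126 tested genes at an adjusted p under 0.05 (edgeR quasi-likelihood test, Benjamini-Hochberg adjustment over all tested genes, two-sided). Of the tested genes 17% were higher (2056) and 15.2% lower (1848) after DMXAA, and these shares are the background for every gene group below. The median log2 fold change was 1.42 among genes called higher and -1.03 among those called lower, against 0.01 over all tested genes. Levels given from control to DMXAA are means of 3 libraries, and the error of a log2 fold change is its standard error. Against the stricter null of a log2 fold change of 1, 769 genes were higher (6.34% of those tested) and 282 lower (2.33%). The rises reached further than the falls. Of the genes called higher, 404 rose by more than 3 on the log2 scale, 115 by more than 6 and 19 by more than 10. Of those called lower, 220 fell by more than 2, 46 by more than 3 and 2 by more than 6.

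**Figure D1:**
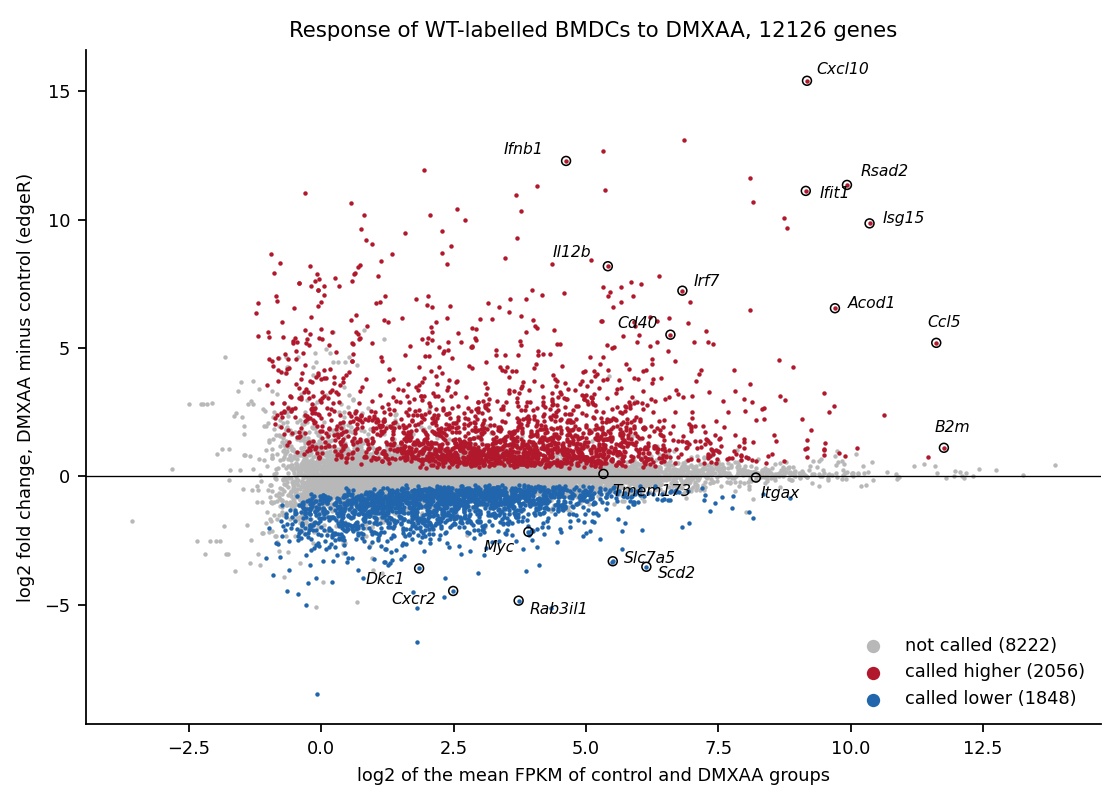
Log2 fold change of each tested gene (DMXAA minus control, vertical axis) against the log2 of its mean FPKM over the control and DMXAA groups (horizontal axis), with 2056 genes called higher in red, 1848 called lower in blue and 8222 not called in grey. The circled interferon-stimulated genes and chemokines sit at the top, Tmem173 and Itgax lie near 0, and the circled falls, such as Scd2 and Dkc1, reach -4.84 for Rab3il1; 1 tested gene with 0 FPKM in all 6 libraries is not drawn.

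The balance of rises and falls depends on the scaling. The main scaling (TMM) sets the bulk of genes near 0, whereas scaling by total counts shifts the median of all genes to -0.36 and gives 1349 higher and 3754 lower calls, 26.4% of calls higher against 52.7%. All 1848 genes called lower and 1349 of the 2056 called higher kept their call under both scalings, and 0 of the genes called higher turned lower. Fitting library number as a block within label, since same-numbered libraries deviated together, raised the count to 5911 (2980 higher, 2931 lower), including 2053 of the 2056 higher and 1846 of the 1848 lower calls. Leaving out both libraries numbered 1 left 2608 calls, 1523 higher and 1085 lower.

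The genes were called from the 3 same-numbered pairs together, so their direction within a pair was largely fixed by the call and is a description only. All 1848 genes called lower were lower, and between 2053 and 2056 of the genes called higher were higher, in the pairs numbered 1, 2 and 3. For the 404 genes that rose over 8-fold the median log2 ratio within a pair was 3.39, 3.35 and 3.55. Pair 3 held the largest ratio for 191 of these genes, pair 2 for 110 and pair 1 for 103, and a gene's ratios spanned a median of 0.81 log2 units between pairs.

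The shares called are given by level in control cells and were set in part by the expression filter. Of 1184 tested genes under 1 FPKM in the controls, 38.3% were called higher and 1.01% lower, and 265 rose over 8-fold. They had to reach 1 FPKM in 3 libraries to be tested, so genes at that level could enter largely through the DMXAA libraries, as 314 of the genes called higher did. The filter also conditioned falls, since 219 of the genes called lower passed it only through control libraries. Between 1 and 10 FPKM the shares were 13.4% and 17.5%, between 10 and 100 FPKM 17.2% and 16.9%, and from 100 FPKM upward 12.9% and 5.92% of 490 genes. Among the most abundant transcripts, those at 1000 FPKM or more numbered 33 in control and 59 in DMXAA cells. Of those 59, 16 were called higher, 7 of them by over 8-fold, and 0 were called lower. By total counts, the genes called higher took 13.9%, 14.7% and 15% of each control library and 33%, 34.2% and 36.5% of each DMXAA library. The genes called lower went from 11.3%, 11.7% and 11.9% to 4.49%, 4.66% and 4.62%. These shares describe how far the calls reach and were fixed by the calls themselves.

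**Figure D2:**
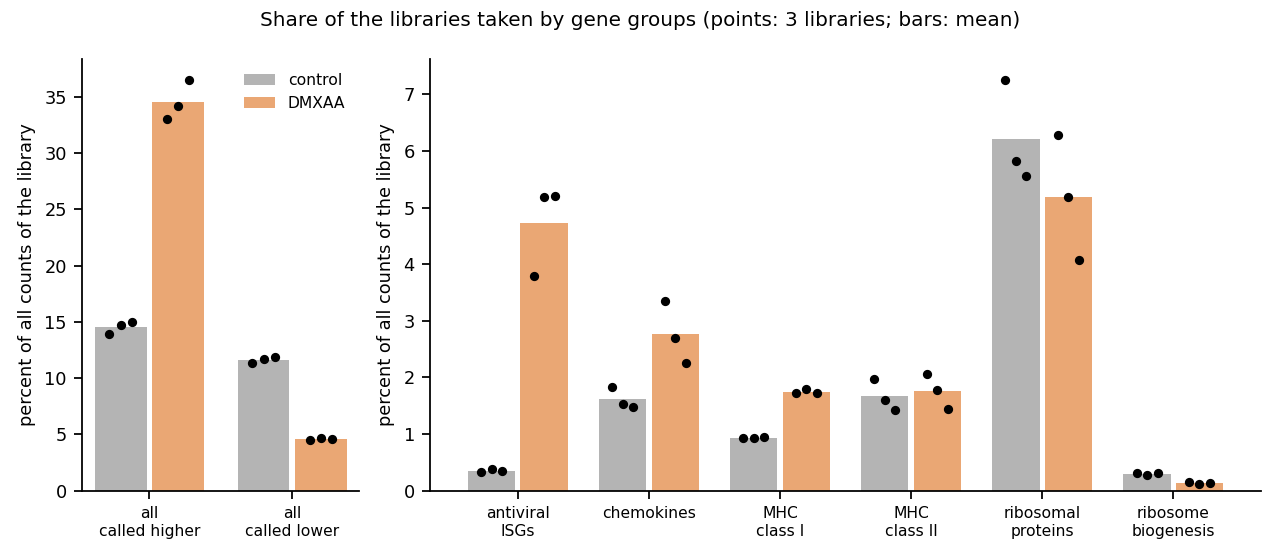
Percent of all counts of a library (vertical axes, from 0) held by gene groups; bars are the means of 3 control (grey) and 3 DMXAA (orange) libraries and points the libraries, numbers 1 to 3 from left to right. Genes called higher go from 13.9 to 15% to 33 to 36.5%, and the antiviral interferon-stimulated genes (ISGs) from 0.332 to 0.379% to 3.8 to 5.2%, while ribosomal protein and MHC class II genes overlap between groups.

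The genes were grouped into 41 lists by role, whose 1214 tested members are described below beside the background. Of the 404 genes that rose over 8-fold 146 were in a list, 87 of them in the interferon lists, whereas of the 220 genes that fell over 4-fold 28 were in a list. The lists therefore cover the rises better than the falls. Beyond the lists where this is said below, 2 Toll-like receptor and adaptor genes were tested only through DMXAA libraries. So was 1 gene each of the chemoattractant receptor, costimulatory, dendritic cell identity, macrophage identity and apoptosis lists. Tested only through control libraries were 3 genes each of the cell division and inflammasome lists. The same held for 1 gene each of the ribosome biogenesis, cytokine and fatty acid lists.

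**Figure D3:**
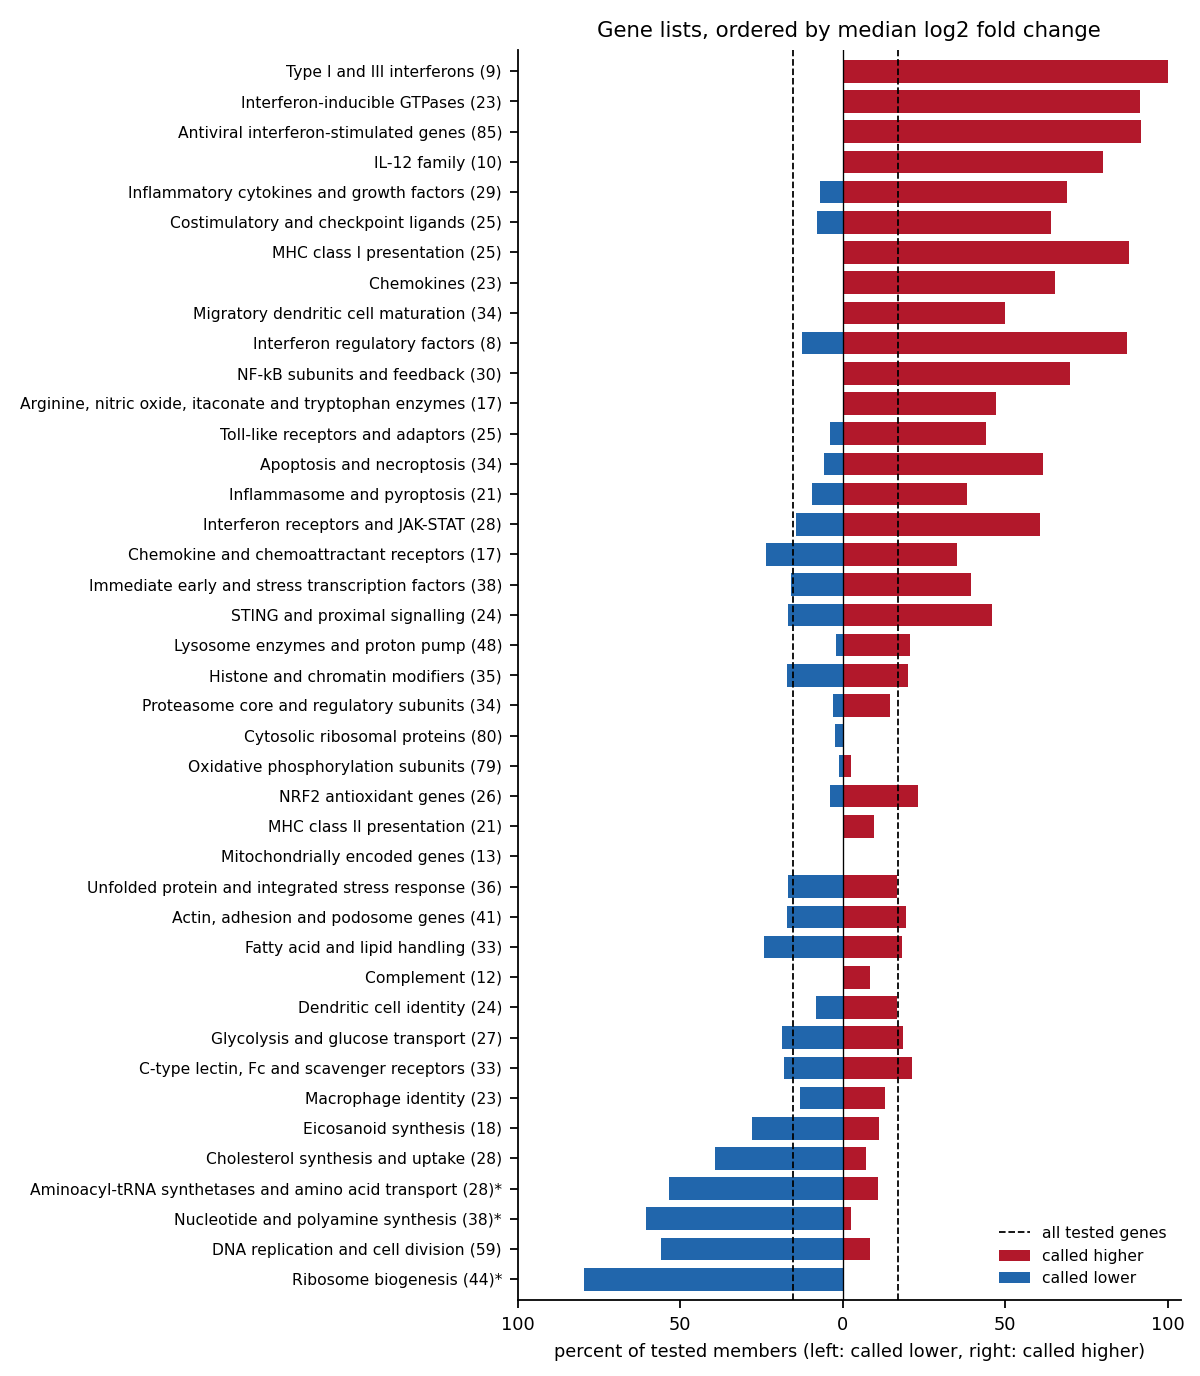
Percent of tested members called higher (right) and lower (left) in each gene list, with the number of tested members in brackets, dashed lines at the shares over all tested genes (17% and 15.2%) and an asterisk on lists written after values were seen. Interferon, interferon-stimulated, MHC class I and IL-12 family lists extend furthest to the right, and ribosome biogenesis, nucleotide synthesis and cell division lists furthest to the left.

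Of 24 tested genes of STING and proximal signalling, upstream of interferon, 11 rose and 4 fell (median 0.28), the falls a share near the background. Irf7, the interferon regulatory factor that amplifies interferon-alpha production, had 1.21, 1.59 and 1.6 FPKM in the control libraries and 198, 237 and 239 FPKM in the DMXAA libraries, with every DMXAA library far above every control library (log2 fold change 7.23 ± 0.36, adjusted p = 2e-07). Mb21d1, which encodes the DNA sensor cGAS upstream of STING, rose from 2.5 to 9.53 FPKM (log2 fold change 1.90 ± 0.29), and the DNA-binding PYHIN protein gene Ifi204 rose from 3.81 to 240.4 FPKM (log2 fold change 5.95 ± 0.27). Irf3, the factor that STING activates by phosphorylation, went the other way, with 12.9, 11.8 and 15 FPKM in the control libraries and 8.93, 9.04 and 8.78 FPKM in the DMXAA libraries (log2 fold change -0.59 ± 0.15, adjusted p = 0.00958). The groups did not overlap, but the call was lost without the pair numbered 1 (adjusted p = 0.059) and with no filter on low values (adjusted p = 0.055). Dnase2a, a lysosomal nuclease that clears DNA, fell from 20.1 to 10.1 FPKM (log2 fold change -1.02 ± 0.22).

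Type I interferon genes were found in the DMXAA libraries. Of 20 type I and III interferon genes, 9 were expressed enough to be tested, and all 9 had 0 counts in the controls and passed only through the DMXAA libraries, so their rise was a condition of being tested. Ifnb1, which encodes interferon-beta, had 0 FPKM in all 3 control libraries and 57, 35 and 56 FPKM in the DMXAA libraries, at least 9.45 log2 units higher when the controls are set at a floor of 3 counts over the group. Ifna4 had 0 FPKM in all 3 control libraries and 26.4, 27.1 and 47.5 FPKM in the DMXAA libraries, and Ifna5 0 FPKM in all 3 control libraries and 15.4, 22.5 and 38.7 FPKM in the DMXAA libraries, at least 8.49 and 8.12 log2 units higher by the same floor. The fitted median over the 9 genes was 9.99, and 7.16 with the genes absent from controls set at their bounds. Interferon-alpha genes are near-identical copies, so reads may have been split between them, and the family is better described than its single members. The family lies in a cluster on chromosome 4 (chr4:88522025-88880201, GRCm38), where 9 of 9 tested interferon genes rose. Of the protein-coding genes tested in the same stretch but not counted in the family, both picked after their values were seen, Gm13283 rose with a log2 fold change of 4.57. Klhl9, a ubiquitin ligase adaptor gene, had -0.05 and was not called. Whether Gm13283 is itself an interferon gene was not examined.

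At the receptor end of the pathway, of 28 tested genes of interferon receptors and JAK-STAT signalling 17 rose and 4 fell (median 0.64), the falls again a share near the background. The counts were 9 and 4 under total-count scaling, 10 rose without control library 1 or without control library 2, and 2 fell without control library 2 or 3 or DMXAA library 2 or 3. The feedback inhibitors rose, with Usp18, which blocks signalling at the interferon receptor, from 5.98 to 543 FPKM (log2 fold change 6.48 ± 0.36), Socs3 from 40.4 to 159 FPKM (log2 fold change 1.95 ± 0.19) and Socs1 from 56.2 to 123 FPKM (log2 fold change 1.10 ± 0.22). Ifnar1, a chain of the type I interferon receptor, had overlapping groups at 11.4, 17.7 and 17.3 FPKM in the control libraries and 16.9, 34.3 and 32.3 FPKM in the DMXAA libraries and was not called (log2 fold change 0.83 ± 0.31, adjusted p = 0.0621). It was higher in each of the 3 same-numbered pairs and was called with the replicate block (0.78, adjusted p = 0.000776), with DESeq2 (adjusted p = 0.032) and without the pair numbered 1 (0.92, adjusted p = 0.040), and without DMXAA library 1 alone it was 1.10 (adjusted p = 0.013). With each other library left out the adjusted p was from 0.089 to 0.19, and under total-count scaling the log2 fold change was 0.46 (adjusted p = 0.29). Ifngr1, a chain of the interferon-gamma receptor, fell from 26.4 to 11.5 FPKM (log2 fold change -1.22 ± 0.19).

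The interferon-stimulated genes rose nearly as a whole. These genes encode effectors that degrade viral RNA, block translation or bind viral entry and assembly. Of 85 tested antiviral interferon-stimulated genes 78 rose and 0 fell, with a median log2 fold change of 4.12, and 17 of the 85 passed the expression filter only through the DMXAA libraries. Leaving out any 1 library kept the count at 77. As a group they held 0.332%, 0.379% and 0.344% of the counts of the control libraries and 3.8%, 5.18% and 5.2% of the DMXAA libraries.

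Isg15, a ubiquitin-like modifier, had 2.92, 2.9 and 2.49 FPKM in the control libraries and 3183, 2355 and 2320 FPKM in the DMXAA libraries (log2 fold change 9.85 ± 0.29, adjusted p = 7.12e-09). It moved from rank 8303 to rank 21 by mean FPKM among the 12126 tested genes, to which the ranks below also refer. Ifit1, which binds viral RNA that lacks host cap marks, had 0.467, 0.556 and 0.479 FPKM in the control libraries and 1082, 1228 and 1103 FPKM in the DMXAA libraries (log2 fold change 11.12 ± 0.25, adjusted p = 5.18e-10). Rsad2 (viperin), an enzyme that makes a chain-terminating nucleotide, had 0.46, 0.904 and 0.834 FPKM in the control libraries and 1460, 2266 and 2124 FPKM in the DMXAA libraries (log2 fold change 11.35 ± 0.58, adjusted p = 2.31e-07). In all of these the groups were separated by more than 2 orders of magnitude and the 3 DMXAA libraries lay close together. Ifit3, a partner of IFIT1, rose from 0.169 to 545 FPKM (log2 fold change 11.60 ± 0.58) and Oasl1, an OAS-like regulator of antiviral translation, from 0.332 to 568 FPKM (log2 fold change 10.70 ± 0.45). Ifitm3, which restricts viral entry and was already abundant in control cells, rose from 229 to 1322 FPKM (log2 fold change 2.50 ± 0.57). The largest ratios belonged to genes with 1 to 3 control counts in all, among them Ifit1bl1 with a log2 ratio of 13.31 (95% counting interval 11.76 to 15.58) and Ifit3b with 13.17 (95% counting interval 10.69 to 18.47), both close copies of other Ifit genes whose counts may be shared with them.

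The interferon-inducible GTPases, which attack the vacuoles of intracellular microbes, rose in the same way, 21 of 23 tested and 0 lower, with a median of 5.13. Of these 23, 8 passed only through the DMXAA libraries. Gbp2 had 34.5, 34.8 and 28.6 FPKM in the control libraries and 590.2, 954 and 756 FPKM in the DMXAA libraries (log2 fold change 4.53 ± 0.35, adjusted p = 4.39e-06), and Ifi47, an immunity-related GTPase, rose from 8.17 to 310.1 FPKM (log2 fold change 5.22 ± 0.19). Iigp1 had 0, 0.0653 and 0.0326 FPKM in the control libraries and 59.7, 104 and 81.3 FPKM in the DMXAA libraries (log2 fold change 11.14 ± 0.64, adjusted p = 5.22e-07). Neither set of groups overlapped.

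Several of these families lie side by side in the genome and rose together; these clusters were picked after the values were seen. In the Ifit cluster (chr19:34550694-34650009, GRCm38) 6 of 6 tested family members rose, with log2 fold changes of 9.04 to 13.1. In the PYHIN cluster of DNA-sensing genes (chr1:173350879-174031810) 13 of 13 rose, over the wider range of 1.18 to 10.4. All 7 tested Oas genes (chr5:120730333-120921652) rose, as did 7 of 8 Schlafen genes (chr11:82942341-83286726). Active enzymes of the Oas family make the second messenger that activates RNase L, and Oas1b is annotated here as a polymorphic pseudogene. Of the guanylate-binding protein genes, 4 of 5 rose on chromosome 3 (chr3:142493978-142669041) and 5 of 5 on chromosome 5 (chr5:105014150-105346472). A stretch could still hold a gene that stayed out of the response. Fam3b, which encodes a secreted protein and lies in the stretch of the Mx genes (chr16:97447035-97560900, 2 of 2 rose), had a log2 fold change of 0.14 and was not called. Neighbouring family members share sequence, so counts of single Gbp, Oas and PYHIN genes are uncertain.

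**Figure D4:**
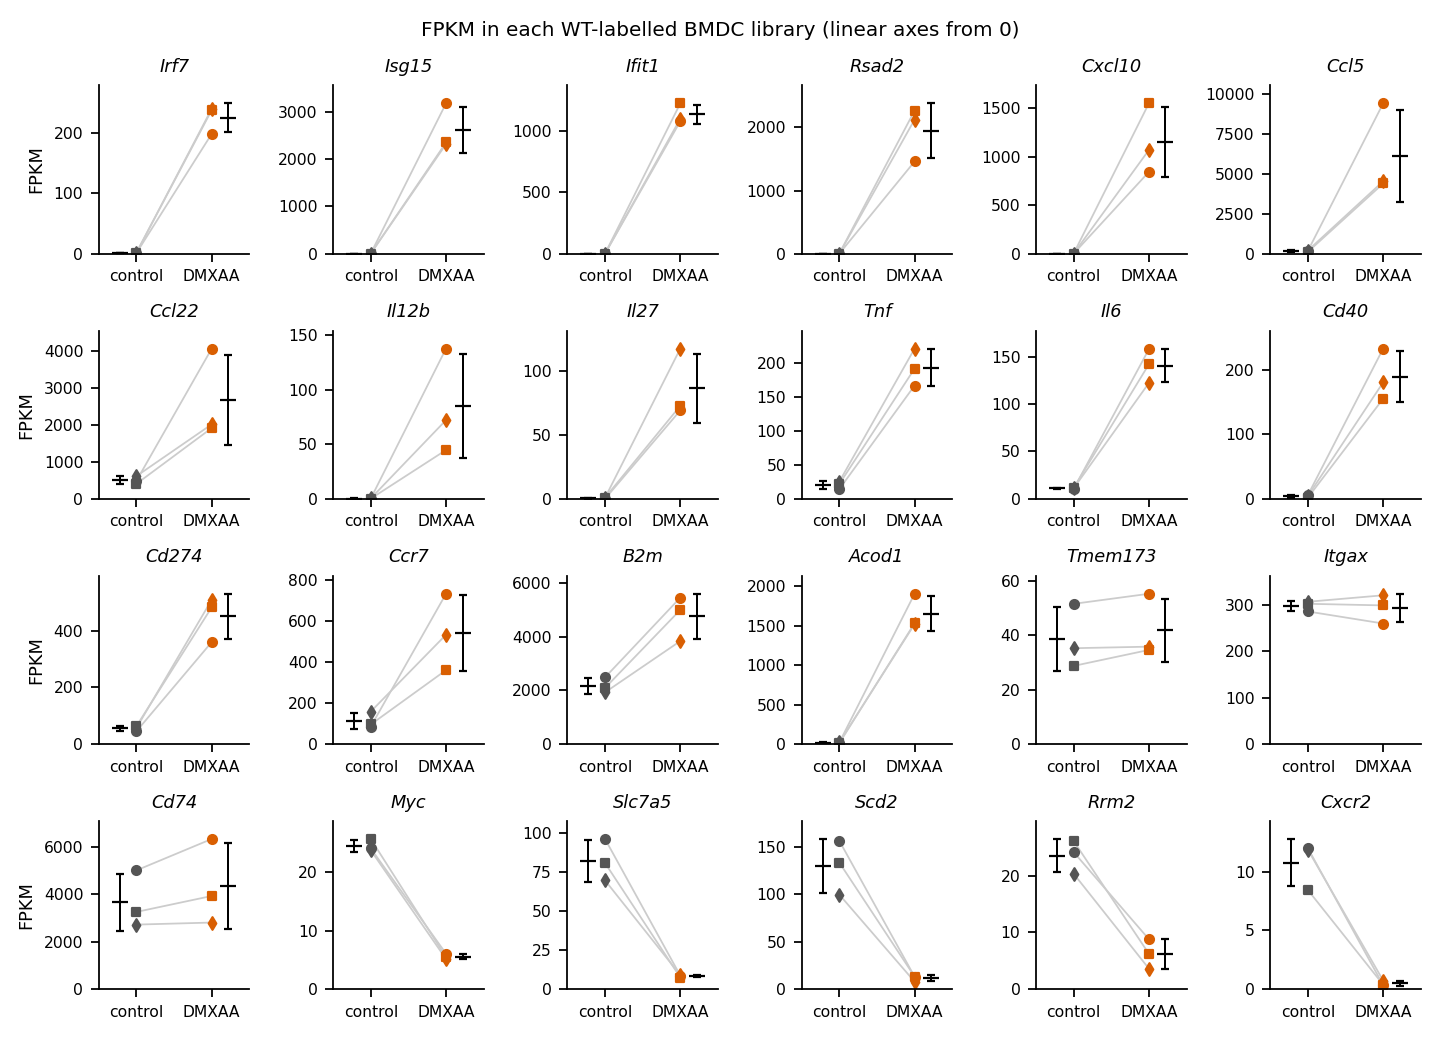
FPKM of 24 genes (vertical axes, linear from 0) in the control and DMXAA libraries; circles, squares and diamonds are library numbers 1, 2 and 3, lines join same-numbered libraries, and the bars beside them show the mean and SD (n = 3). Interferon-stimulated genes, chemokines and cytokines are higher in every DMXAA library, Tmem173, Itgax and Cd74 overlap between groups, and Myc, Slc7a5, Scd2, Rrm2 and Cxcr2 are lower in every DMXAA library.

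The promoters of genes that rose together are shown because interferon and NF-kB responses are read from short motifs near the start of transcription. Interferon-type motifs were searched as GAAANNGAA and NF-kB-type motifs as GGANTTTCC, where N is any base, on both strands of the 300 bases from 250 before to 50 after the RefSeq start. In the sequences below (GRCm38.p6, 5' to 3' on the strand of the gene, ending at the base before the start), capitals mark matches to either motif on either strand, and overlapping matches run together.

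Ifit1 (chr19:34640769-34640888, plus strand), with 3 interferon-motif matches beginning 109, 103 and 84 bases before the start, 2 of them overlapping:
Ifit1: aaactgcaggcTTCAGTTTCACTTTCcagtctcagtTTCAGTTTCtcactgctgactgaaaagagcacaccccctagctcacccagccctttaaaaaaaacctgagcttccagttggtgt
Isg15 (chr4:156200819-156200938, minus strand), with 3 overlapping interferon-motif matches from 78 to 58 and 1 NF-kB-type match from 41 to 33 bases before the start:
Isg15: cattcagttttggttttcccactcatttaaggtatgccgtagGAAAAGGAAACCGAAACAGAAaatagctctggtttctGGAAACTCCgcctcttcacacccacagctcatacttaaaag
Rsad2 (chr12:26456453-26456582, minus strand), with 1 interferon-motif match from 119 to 111 bases before the start:
Rsad2: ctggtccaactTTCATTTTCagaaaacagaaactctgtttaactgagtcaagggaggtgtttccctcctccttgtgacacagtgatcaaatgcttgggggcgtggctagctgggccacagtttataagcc
Cxcl10 (chr5:92348890-92349129, minus strand), with 1 match to each motif, from 213 to 205 for the interferon motif and from 158 to 150 for the NF-kB-type motif:
Cxcl10: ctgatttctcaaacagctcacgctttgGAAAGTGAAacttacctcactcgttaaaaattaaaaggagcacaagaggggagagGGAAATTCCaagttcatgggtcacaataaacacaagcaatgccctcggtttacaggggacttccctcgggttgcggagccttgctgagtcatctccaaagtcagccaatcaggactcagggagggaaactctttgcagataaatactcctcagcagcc
Ifna4 (chr4:88841686-88841815, plus strand), with 1 interferon-motif match from 118 to 110:
Ifna4: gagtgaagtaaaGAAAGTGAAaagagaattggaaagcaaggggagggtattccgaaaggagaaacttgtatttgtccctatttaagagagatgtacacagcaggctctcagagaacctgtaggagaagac
Ifnb1 (chr4:88522795-88522914, minus strand), with 1 NF-kB-type match from 115 to 107:
Ifnb1: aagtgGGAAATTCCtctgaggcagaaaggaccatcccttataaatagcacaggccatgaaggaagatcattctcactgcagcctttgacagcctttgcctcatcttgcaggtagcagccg
Il6 (chr5:30012994-30013113, plus strand), with 1 NF-kB-type match from 43 to 35:
Il6: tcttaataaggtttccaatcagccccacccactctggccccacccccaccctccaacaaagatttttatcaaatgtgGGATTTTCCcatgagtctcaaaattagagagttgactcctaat
Nfkbia (chr12:55492648-55492837, minus strand), with NF-kB-type matches from 178 to 170 and from 29 to 21 and 1 interferon-motif match from 53 to 45:
Nfkbia: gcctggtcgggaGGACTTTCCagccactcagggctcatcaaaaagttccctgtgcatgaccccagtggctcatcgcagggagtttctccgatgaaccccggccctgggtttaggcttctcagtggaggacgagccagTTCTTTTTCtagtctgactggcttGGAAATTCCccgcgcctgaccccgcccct

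Across the 10407 tested protein-coding genes, 8432 (81%) had a promoter in the table. A gene was counted as holding a motif if any of its promoters did. The interferon motif stood in 17.3% of the 968 genes with a promoter that rose by more than 1 on the log2 scale. It stood in 10.3% of the 543 that rose by less, in 8.42% of the 5450 not called and in 6.71% of the 745 that fell by more than 1. The NF-kB-type motif stood in 4.03%, 3.31%, 1.32% and 1.61% of the same groups. Over all tested coding genes the shares were 9.24% and 1.74%, and over all 27025 genes with a promoter, tested or not, 9.76% and 1.45%. Counted by single promoter, 8.56% and 1.25% of all 32851 held the motifs. Other motifs followed another order. The E2F-type motif TTTNNCGC stood in 8.57% of the genes with a promoter that rose by more than 1 and in 11.7% of those that fell by more than 1. The ATF/CREB motif TGACGTCA stood in 2.69% and 2.42%. Among the antiviral interferon-stimulated genes, 38 of the 69 with a promoter held the interferon motif, as did 8 of 9 among the type I interferon genes, and in the NF-kB list below 5 of 25 held the NF-kB-type motif. A match is a description of letters in the window, and no match says nothing of whether a factor binds.

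NF-kB genes and their feedback inhibitors rose together. Of 30 tested members 21 rose and 0 fell, with a median of 1.25, and 17 and 2 under total-count scaling. Nfkbia, which encodes the inhibitor that holds NF-kB in the cytoplasm and is itself an NF-kB target, had 60.5, 73.5 and 87 FPKM in the control libraries and 461, 414 and 442 FPKM in the DMXAA libraries (log2 fold change 2.55 ± 0.20, adjusted p = 5.63e-06). Tnfaip3 (A20), a ubiquitin-editing brake on the pathway, rose from 4.26 to 56.3 FPKM (log2 fold change 3.70 ± 0.42), and Nfkb2, a subunit of the non-canonical pathway, from 29.3 to 107 FPKM (log2 fold change 1.84 ± 0.30).

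The inflammatory cytokines followed. Of 29 tested cytokine and growth factor genes 20 rose and 2 fell (median 2.37), with 2 tested only through DMXAA libraries. The counts were 19 and 4 under total-count scaling. Il6, the acute-phase cytokine, had 10.3, 11.5 and 11.1 FPKM in the control libraries and 158, 142 and 122 FPKM in the DMXAA libraries (log2 fold change 3.65 ± 0.25, adjusted p = 1.52e-06). Tnf had 14.3, 21.7 and 25.2 FPKM in the control libraries and 166, 191 and 220.5 FPKM in the DMXAA libraries (log2 fold change 3.21 ± 0.29, adjusted p = 1.33e-05), and Il1b rose from 9.03 to 63.3 FPKM (log2 fold change 2.78 ± 0.56). Neither Il6 nor Tnf overlapped between groups, and their 3 DMXAA libraries differed from each other by less than 1.5-fold. Il1rn, the antagonist of interleukin-1, rose from 18.9 to 251 FPKM (log2 fold change 3.70 ± 0.64), Inhba, a subunit of activin A, from 29.1 to 292 FPKM (log2 fold change 3.30 ± 0.47), and Tnfsf10, the death ligand TRAIL, from 0.206 to 20.3 FPKM (log2 fold change 6.60 ± 0.53). Il10, the anti-inflammatory cytokine, did not reach the expression filter, with 0 counts in each control library and 13, 16 and 23 counts after DMXAA. The 2 members that fell were Pdgfb, a growth factor gene (1.71 to 0.579 FPKM), and Il16 (1.94 to 0.416 FPKM), a chemoattractant for CD4+ T cells.

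The IL-12 family, heterodimeric cytokines that steer T helper responses, rose in 8 of 10 tested genes with 0 lower (median 2.99), 5 of the 10 tested only through DMXAA libraries. Il12b, the p40 subunit shared by IL-12 and IL-23, had 0.274, 0.181 and 0.388 FPKM in the control libraries and 138, 44.8 and 72.3 FPKM in the DMXAA libraries (log2 fold change 8.18 ± 0.70, adjusted p = 9.95e-06). Il27, the p28 subunit of IL-27, had 0.0528, 0.898 and 0.798 FPKM in the control libraries and 69.3, 73 and 118 FPKM in the DMXAA libraries (log2 fold change 7.16 ± 0.90, adjusted p = 0.000148). DMXAA library 1 was the highest of its group for Il12b and library 3 for Il27, and in both genes the groups were far apart. Il23a, the p19 subunit of IL-23, reached 6.62, 2.45 and 4.6 FPKM from at most 0.068 FPKM (log2 fold change 7.04 ± 1.20), and Il12a, the p35 subunit of IL-12, 1.68, 0.579 and 1.36 FPKM from at most 0.127 FPKM (log2 fold change 4.18 ± 0.86). Per length, the p40 transcript after DMXAA was thus far above p19 and p35, its partner chains. Ebi3, the partner of p28, was expressed before treatment and rose from 24.1 to 76.2 FPKM (log2 fold change 1.63 ± 0.24).

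Chemokines were among the most abundant transcripts of the treated cells. Of 23 tested genes 15 rose and 0 fell, with a median of 1.73, and without the pair numbered 1 the count was 11. Of these 23, 4 passed the expression filter only through the DMXAA libraries. Cxcl10, which attracts CXCR3-bearing T and NK cells, had 0, 0.0226 and 0.0452 FPKM in the control libraries and 845, 1553 and 1071 FPKM in the DMXAA libraries, a log2 ratio of 15.60 (95% counting interval 14.05 to 17.88), and moved from rank 12035 to rank 43. Ccl5 (RANTES) had 178, 113 and 197 FPKM in the control libraries and 9417, 4396 and 4538 FPKM in the DMXAA libraries (log2 fold change 5.20 ± 0.69, adjusted p = 0.000215) and ranked 4 in the DMXAA cells, from 298 in the controls. Ccl22, a ligand of CCR4 made by mature dendritic cells, had 488, 405 and 614 FPKM in the control libraries and 4057, 1913 and 2012 FPKM in the DMXAA libraries (log2 fold change 2.37 ± 0.51, adjusted p = 0.00419). In Ccl5 and Ccl22 DMXAA library 1 stood above the other two, and Ccl22 narrowly lost its call without the pair numbered 1 (1.94, adjusted p = 0.051). Ccl3, a chemoattractant of monocytes and T cells, rose from 209.8 to 1430 FPKM (log2 fold change 2.74 ± 0.44). In the neighbouring Cxcl9, Cxcl10 and Cxcl11 genes (chr5:92321347-92365485) 3 of 3 rose, with log2 fold changes of 9.49 to 15.4, and in the Ccl2 to Ccl12 stretch (chr11:82035571-82305690) 4 of 4. In the Ccl3 to Ccl9 stretch (chr11:83525778-83664683), which also holds Ccl5, 3 of 5 rose. Ccl6 (log2 fold change 0.122) and Ccl9 (0.595) were not called.

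Chemoattractant receptors moved in both directions. Of 17 tested 6 rose and 4 fell (median 0.59), with 5 and 2 without the pair numbered 1 and 6 and 6 under total-count scaling. Ccr7, which guides dendritic cells to lymph nodes, had 84.9, 95.2 and 158 FPKM in the control libraries and 732, 360.1 and 533 FPKM in the DMXAA libraries (log2 fold change 2.23 ± 0.52, adjusted p = 0.00686), higher in all 3 DMXAA libraries, with its call lost without the pair numbered 1 (1.81, adjusted p = 0.078). Ccrl2, a receptor that presents chemerin, rose from 1.97 to 147 FPKM (log2 fold change 6.20 ± 0.37). Cxcr2, the receptor for neutrophil-attracting chemokines, had 12, 8.44 and 11.9 FPKM in the control libraries and 0.344, 0.388 and 0.739 FPKM in the DMXAA libraries (log2 fold change -4.47 ± 0.44, adjusted p = 2.52e-05), lower in each DMXAA library by over 10-fold. Ltb4r1, the leukotriene B4 receptor, fell from 107 to 25.9 FPKM (log2 fold change -2.08 ± 0.38). Cxcr2 is also a neutrophil marker, and the 12 neutrophil markers summed to 147 to 210 CPM in control and 89.1 to 98.1 CPM in DMXAA libraries. Most of that sum was Mmp8, at 89.8 to 148 and 57.5 to 84.5 CPM, while S100a8, a defining neutrophil gene, stayed at or under 11.8 CPM in all 6 libraries. The part of other cells in the fall of Cxcr2 was not tested.

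Maturation genes of dendritic cells rose broadly. Of 25 tested costimulatory and checkpoint ligands 16 rose and 2 fell (median 1.91), and of 34 genes of the migratory, mature state 17 rose and 0 fell (median 1.43), the latter with 10 higher without the pair numbered 1 and the former with 1 lower without any 1 library. Under total-count scaling the counts were 15 and 2 for the costimulatory list and 17 and 1 for the migratory list. Cd40, the receptor through which helper T cells license dendritic cells, had 5.81, 1.87 and 4.51 FPKM in the control libraries and 233, 155 and 180.3 FPKM in the DMXAA libraries (log2 fold change 5.52 ± 0.69, adjusted p = 0.000144). Cd274 (PD-L1), an inhibitory ligand, rose from 55.3 to 452 FPKM (log2 fold change 3.01 ± 0.27), and Tnfsf4 (OX40L), a costimulatory ligand, from 23.1 to 419 FPKM (log2 fold change 4.16 ± 0.41). All 3 were separated between groups. Cd80 rose from 16.5 to 62.9 FPKM (log2 fold change 1.91 ± 0.21). Cd86 had 55.4, 14.6 and 23.7 FPKM in the control libraries and 227, 96.8 and 118 FPKM in the DMXAA libraries (log2 fold change 2.21 ± 0.68, adjusted p = 0.0277), a call that was lost when control library 2, control library 3 or DMXAA library 1 was left out (adjusted p from 0.090 to 0.099). Fscn1, the actin bundler of dendrites, rose from 39.8 to 411 FPKM (log2 fold change 3.33 ± 0.54), and Marcksl1 from 46.3 to 918 FPKM (log2 fold change 4.28 ± 0.55). The members of the costimulatory list that fell were Vsir (VISTA), an inhibitory ligand (25.2 to 5.82 FPKM), and Havcr2 (TIM-3; 11.4 to 4.59 FPKM), the latter lost when any 1 library was left out (adjusted p from 0.051 to 0.098).

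Identity genes changed little as groups. Of 24 tested dendritic cell identity genes 4 rose and 2 fell (median -0.10), and of 23 macrophage identity genes 3 rose and 3 fell (median -0.28), shares at or below the background, with 2 and 5 and with 2 and 7 under total-count scaling; without the pair numbered 1 the counts were 2 and 1 in both lists, without DMXAA library 1 the dendritic cell genes had 2 higher, and without control library 1 they had 1 lower. Irf8, a factor required for type 1 conventional dendritic cells, rose from 6.26 to 38.1 FPKM (log2 fold change 2.57 ± 0.42), and Xcr1, the chemokine receptor of that subset, reached 2.15 FPKM on average from 0.059 FPKM. Cd24a fell from 178 to 45.6 FPKM (log2 fold change -1.99 ± 0.35). Mertk, a receptor for apoptotic cells, rose from 4.84 to 21.4 FPKM (log2 fold change 2.13 ± 0.50). The list of plasmacytoid dendritic cell markers summed to 122 to 131 CPM in control and 650 to 753 CPM in DMXAA libraries, carried by Bst2 (tetherin), also an interferon-stimulated gene, and Tcf4, while the defining marker Siglech had 0 counts in all 6 libraries.

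Antigen presentation separated by class. Of 25 tested MHC class I presentation genes 22 rose and 0 fell (median 1.89), with 22 and 1 under total-count scaling. The count of rises stayed at 22 when any 1 library or both libraries numbered 1 were left out. Of 21 MHC class II genes 2 rose and 0 fell (median -0.01), with 2 and 4 under total-count scaling. B2m, the light chain of all class I molecules, had 2488, 2094 and 1929 FPKM in the control libraries and 5464, 5008 and 3843 FPKM in the DMXAA libraries (log2 fold change 1.11 ± 0.25, adjusted p = 0.00548), and all 3 DMXAA libraries lay above all 3 controls. H2-K1 and H2-D1, the classical class I heavy chains, rose from 417 to 1038 FPKM (log2 fold change 1.29 ± 0.16) and from 702 to 1527 FPKM (log2 fold change 1.10 ± 0.17). H2-T24, a nonclassical family member whose sequence resembles other class I genes, rose from 3.38 to 58 FPKM (log2 fold change 4.08 ± 0.45). Class I genes held 0.932%, 0.932% and 0.94% of control counts and 1.72%, 1.79% and 1.73% of DMXAA counts, with groups far apart. Class II genes held 1.98%, 1.6% and 1.42% and then 2.07%, 1.78% and 1.45%, where the spread between libraries of an arm exceeded the difference between arms. The 2 members that rose were Ctsb, a lysosomal protease (603 to 1159 FPKM), and Rfx5, a factor of the class II enhanceosome (1.16 to 3.99 FPKM). Of the 34 proteasome core and regulatory subunits 5 rose and 1 fell (median 0.15), and total-count scaling gave 2 and 6; 2 rose without control library 2 or 3 and 3 without DMXAA library 1 or 2.

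Innate receptors changed member by member. Of 25 tested Toll-like receptor and adaptor genes 11 rose and 1 fell (median 0.80), with 9 and 4 under total-count scaling. Tlr3, the endosomal sensor of double-stranded RNA, rose from 0.339 to 14.7 FPKM (log2 fold change 5.40 ± 0.46), Cd180, a TLR-like regulator, from 7.31 to 57.3 FPKM (log2 fold change 2.95 ± 0.32) and Myd88, the shared adaptor, from 29.1 to 70.2 FPKM (log2 fold change 1.25 ± 0.18). The member that fell was Sigirr, an inhibitory receptor, from 5.45 to 1.23 FPKM (log2 fold change -2.17 ± 0.23). Of 33 C-type lectin, Fc and scavenger receptors 7 rose and 6 fell (median -0.28), with 5 and 11 under total-count scaling, and 3 of the falls were called without control library 1 and 0 without the pair numbered 1. Clec4e (Mincle), a receptor for mycobacterial glycolipid, rose from 6.86 to 145 FPKM (log2 fold change 4.38 ± 0.58), whereas Fcgr2b, the inhibitory Fc receptor, fell from 83.2 to 24 FPKM (log2 fold change -1.81 ± 0.45), with an adjusted p of 0.054 without the pair numbered 1.

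Cell death genes rose more often than the background. Of 21 tested inflammasome and pyroptosis genes 8 rose and 2 fell (median 0.69), and of 34 apoptosis and necroptosis genes 21 rose and 2 fell (median 0.78), with 7 and 6 and with 12 and 5 under total-count scaling; 1 of the 2 inflammasome falls was called without control library 1 or 3 or DMXAA library 3. Casp4, the caspase-11 that senses cytosolic lipopolysaccharide, rose from 4.43 to 54.8 FPKM (log2 fold change 3.60 ± 0.29), Casp1, the caspase of the inflammasome, from 37.2 to 132 FPKM (log2 fold change 1.80 ± 0.19), and Gsdmd, the pore-former it cleaves, from 32.5 to 80.6 FPKM (log2 fold change 1.29 ± 0.16). In the apoptosis list Bcl2, an inhibitor of apoptosis, fell from 5.36 to 1.65 FPKM (log2 fold change -1.72 ± 0.24), and Bcl2a1d, a paralog with an anti-apoptotic role, rose from 362 to 793 FPKM (log2 fold change 1.10 ± 0.28). The Bcl2a1 genes are near-identical copies and their separate counts are uncertain; the call of Bcl2a1d was lost without control library 2 or control library 3 (adjusted p = 0.050 in both).

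Enzymes of immune metabolism rose, and few genes of energy metabolism were called. Of 17 tested genes of arginine, nitric oxide, itaconate and tryptophan metabolism 8 rose and 0 fell (median 0.99), with 7 and 4 under total-count scaling. Acod1, which makes itaconate from a citric acid cycle intermediate, had 19, 12.3 and 20.6 FPKM in the control libraries and 1902, 1529 and 1518 FPKM in the DMXAA libraries (log2 fold change 6.55 ± 0.51, adjusted p = 4.74e-06). Nos2, the inducible nitric oxide synthase, had 2.85, 0.808 and 1.74 FPKM in the control libraries and 134, 70.2 and 150.0 FPKM in the DMXAA libraries (log2 fold change 6.02 ± 0.74, adjusted p = 0.000127). Control library 2 was the lowest of its group for both genes, and DMXAA values stayed far above all controls. Slc7a2, an arginine importer, and Ass1, which regenerates arginine, rose from 63 to 288 FPKM (log2 fold change 2.17 ± 0.39) and from 97.1 to 267 FPKM (log2 fold change 1.43 ± 0.31). Glycolysis and glucose transport had 5 of 27 higher and 5 lower (median -0.27), oxidative phosphorylation subunits 2 of 79 higher and 1 lower (median 0.04), and the mitochondrially encoded genes 0 of 13 in either direction (median -0.03), with 5 and 15, 0 and 11, and 0 and 0 under total-count scaling. The 5 lower glycolysis calls were 2 without control library 1 or 2 or without the pair numbered 1 and 3 without DMXAA library 2 or 3, and the 2 higher oxidative phosphorylation calls were 0 without control library 3 and 1 without control library 2 or DMXAA library 1. Its 1 lower call was lost without any control library, DMXAA library 1 or DMXAA library 3. Hk3, a myeloid hexokinase, rose from 96.4 to 272 FPKM (log2 fold change 1.47 ± 0.18) and Slc2a6, a sugar transporter, from 73.1 to 193 FPKM (log2 fold change 1.38 ± 0.28), while Pfkfb4, a regulator of glycolytic flux, fell from 18.5 to 4.35 FPKM (log2 fold change -2.11 ± 0.45). Gapdh had overlapping groups, at 1.88, 4.99 and 4.14 FPKM in the control libraries and 68.2, 2.81 and 26.8 FPKM in the DMXAA libraries, and has many pseudogene copies, so it is uncertain; its call as higher was lost with limma-voom, with the block and when any of 5 of the 6 libraries was left out.

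The largest falls are given for protein-coding genes of at least 5 FPKM in the controls whose groups did not overlap, and other called genes fell further. Rab3il1, a factor that exchanges nucleotide on Rab GTPases, had 26.7, 24.8 and 25.4 FPKM in the control libraries and 0.891, 1.29 and 0.54 FPKM in the DMXAA libraries (log2 fold change -4.84 ± 0.80, adjusted p = 0.000904). Pald1, B3gnt7 (a glycosyltransferase gene) and Hr, a nuclear co-repressor, fell too, with log2 fold changes of -4.72, -4.51 and -3.96. Cdh1 (E-cadherin), through which cultured dendritic cells cluster, had 74.3, 91.9 and 77.4 FPKM in the control libraries and 5.4, 12.4 and 6.93 FPKM in the DMXAA libraries (log2 fold change -3.32 ± 0.56, adjusted p = 0.00105). For both genes every DMXAA library lay far below the lowest control. Adra2a and Gfra2, an adrenergic receptor and a receptor for neurturin, fell with log2 fold changes of -3.77 and -3.69, and Sla, an adaptor that dampens receptor signalling, with -3.45. Their falls held under both scalings.

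Genes that supply growth fell as groups. Myc, the transcription factor that drives ribosome and nucleotide production, had 24.1, 25.7 and 23.8 FPKM in the control libraries and 6.09, 5.48 and 5.17 FPKM in the DMXAA libraries (log2 fold change -2.16 ± 0.36, adjusted p = 0.000892), with no overlap. Of 44 tested ribosome biogenesis genes 35 fell and 0 rose (median -1.04), and of 38 nucleotide and polyamine synthesis genes 23 fell and 1 rose (median -0.72). Of 28 aminoacyl-tRNA synthetase and amino acid transport genes 15 fell and 3 rose (median -0.57). These 3 lists were written after values had been seen, so their counts describe the falls and are no independent evidence of them. Dkc1, the pseudouridine synthase of H/ACA particles and of telomerase, had 6.91, 5.98 and 7.05 FPKM in the control libraries and 0.474, 0.51 and 0.692 FPKM in the DMXAA libraries (log2 fold change -3.59 ± 0.31, adjusted p = 9.84e-06). Slc7a5, the large neutral amino acid transporter, had 96.5, 81 and 69.9 FPKM in the control libraries and 8.74, 7.54 and 9.08 FPKM in the DMXAA libraries (log2 fold change -3.31 ± 0.43, adjusted p = 0.000181). Both were lower in every pair of libraries, with no overlap between groups. Srm, spermidine synthase, fell from 51.3 to 10.4 FPKM (log2 fold change -2.34 ± 0.32) and Uck2, which salvages uridine and cytidine, from 26.9 to 4.85 FPKM (log2 fold change -2.50 ± 0.20). Among the exceptions in these lists were Wars, the tryptophan tRNA synthetase known as an interferon-gamma target, which rose from 36.9 to 109.7 FPKM (log2 fold change 1.55 ± 0.26), and Sms, spermine synthase, from 5.98 to 18.1 FPKM (log2 fold change 1.57 ± 0.24). Few genes of the cytosolic ribosomal proteins themselves were called, with 0 of 80 higher and 2 lower (median 0.10) and 0 and 3 under total-count scaling; 0 were lower without control library 1 or DMXAA library 3, and 1 without control library 2 or DMXAA library 1 or 2.

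Cell division genes fell as well. Of 59 tested genes of DNA replication and division 33 fell and 5 rose (median -0.95), with 23 lower without the pair numbered 1. The share of counts held by the whole list did not fall. It was 0.357%, 0.389% and 0.372% in the control libraries and 0.402%, 0.412% and 0.432% in the DMXAA libraries. Cdc20, an activator of the anaphase-promoting complex, fell from 8.93 to 1.51 FPKM (log2 fold change -2.58 ± 0.30) and Cdk4, a G1 kinase, from 42.5 to 19.1 FPKM (log2 fold change -1.18 ± 0.18). Cdkn1a (p21), an inhibitor of cyclin-dependent kinases, had 183, 181 and 184 FPKM in the control libraries and 605, 561 and 538 FPKM in the DMXAA libraries (log2 fold change 1.61 ± 0.14, adjusted p = 9.23e-06), with the libraries of each arm close together, and Ccnd2, a D-type cyclin, rose from 41.4 to 129 FPKM (log2 fold change 1.62 ± 0.32). Mki67, the usual proliferation marker, was not called, at 5.09, 6.1 and 5.43 FPKM in the control libraries and 4.73, 4.52 and 5.63 FPKM in the DMXAA libraries (log2 fold change -0.18 ± 0.45, adjusted p = 0.81), with overlapping groups. Of the 48 genes of this list with a promoter 14 held the E2F-type motif, against 10.1% of all tested coding genes.

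Lipid synthesis fell in part. Of 28 tested cholesterol synthesis and uptake genes 11 fell and 2 rose (median -0.44), with 4 lower without the pair numbered 1, 5 without control library 1 or DMXAA library 2 and 7 without control library 3 or DMXAA library 3. Cyp27a1, which makes an oxysterol, and Insig2, which restrains sterol synthesis, rose from 1.44 to 7.05 FPKM (log2 fold change 2.26 ± 0.25) and from 6.06 to 15.9 FPKM (log2 fold change 1.37 ± 0.20). Of 33 fatty acid and lipid genes 8 fell and 6 rose (median -0.06), with 12 and 3 under total-count scaling. Scd2, a desaturase that makes monounsaturated fatty acids, had 156, 133 and 99.6 FPKM in the control libraries and 13.2, 13.3 and 7.94 FPKM in the DMXAA libraries (log2 fold change -3.52 ± 0.55, adjusted p = 0.000625), lower in every pair, and Acsl1, which activates fatty acids, rose from 3.45 to 73.3 FPKM (log2 fold change 4.38 ± 0.43). In eicosanoid synthesis 5 of 18 fell and 2 rose (median -0.36), with 9 and 2 under total-count scaling, and the cyclooxygenases crossed over, with Ptgs1 falling from 54.6 to 12.9 FPKM (log2 fold change -2.11 ± 0.34) and Ptgs2 rising from 0.266 to 10.3 FPKM (log2 fold change 5.23 ± 0.92).

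Transcription factors of the immediate early and stress classes moved both ways, 15 of 38 higher and 6 lower (median 0.29; 10 and 9 under total-count scaling), and of 8 tested interferon regulatory factors 7 rose and 1, Irf3, fell (median 1.41), with 4 higher under total-count scaling. Batf2, an AP-1 family member induced by interferon, rose from 1.4 to 24.4 FPKM (log2 fold change 4.10 ± 0.36), Atf3, a stress-induced factor, from 105 to 485 FPKM (log2 fold change 2.18 ± 0.27) and Junb from 84.5 to 262 FPKM (log2 fold change 1.60 ± 0.15). Cebpa, a factor of myeloid differentiation, fell from 44 to 13.7 FPKM (log2 fold change -1.71 ± 0.25).

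Other cellular programmes stayed near or under the background. The unfolded protein and integrated stress response had 6 of 36 higher and 6 lower (median -0.05), NRF2 antioxidant genes 6 of 26 and 1 (median 0.02), lysosome enzymes 10 of 48 and 1 (median 0.18), complement 1 of 12 and 0 (median -0.06), actin and adhesion genes 8 of 41 and 7 (median -0.05) and chromatin modifiers 7 of 35 and 6 (median 0.17). Under total-count scaling these became 3 and 15, 3 and 7, 5 and 8, 1 and 2, 4 and 13, and 4 and 11, so a direction is given for none of them. Of single libraries, control libraries 2 and 3 each took the lysosome rises to 6, control libraries 1 and 2 and DMXAA library 1 the actin falls to 4, and control libraries 2 and 3 and DMXAA libraries 1 and 2 the chromatin falls to 1, and without the pair numbered 1 the actin list had 4 higher and 3 lower and the chromatin list 2 lower. Within them single genes still changed. Eif2ak2 (PKR), a kinase activated by double-stranded RNA, rose from 5.36 to 43.7 FPKM (log2 fold change 3.01 ± 0.28) and Ppp1r15a, which reverses the block to translation, from 16.5 to 77.8 FPKM (log2 fold change 2.21 ± 0.27). Herpud1, a factor of endoplasmic reticulum-associated degradation, fell from 48.4 to 14.1 FPKM (log2 fold change -1.80 ± 0.27). Sqstm1 (p62), an autophagy receptor, rose from 213 to 561 FPKM (log2 fold change 1.38 ± 0.23), and Setdb2, a lysine methyltransferase family member, from 2.13 to 15 FPKM (log2 fold change 2.80 ± 0.21), while Myo1e, a class I myosin, fell from 37.9 to 8.55 FPKM (log2 fold change -2.17 ± 0.35).

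The response was also set beside that of the CRE-labelled BMDCs, in which the floxed allele is subject to the tamoxifen-induced Cre. The difference of the response between labels was called for 0 of 12126 genes (0%) by the edgeR interaction test, with 60 genes at an unadjusted p under 0.05, and for 1 gene by DESeq2. As the Tmem173 levels of the labels overlapped and the closest libraries crossed the labels, no gene here can be called particular to the WT-labelled cells.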

How the data were processed

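PolyA RNA of 12 BMDC libraries was used, 6 of them WT-labelled. The deposited table holds whole-number counts of 54532 genes beside FPKM values; for these the authors took gene length and an estimated library size, which among the BMDC libraries was smaller with DMXAA than in controls. Per the labels' processing notes, CASAVA 1.8, fastp, HISAT2 2.0.5, featureCounts 1.5.0-p3 and DESeq2 1.20.0 were used with GRCm38 (mm10). Strandedness is not stated, so overlapping and antisense genes cannot be told apart. The deposited log2 fold changes and p-values, raw and adjusted, hold the authors' own comparisons and were not used. Of the per-library columns 0 were unmatched.

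Counts were fitted with the edgeR 4.0.16 quasi-likelihood test (R 4.3.3, TMM scaling), with genes of at least 1 FPKM in 3 BMDC libraries tested and an adjusted p under 0.05 called; the 12 libraries shared 1 estimate of spread (common biological coefficient of variation 29.11%). Some of the 12 may not be independent, since libraries crossed labels in likeness, so a fit of the 6 WT-labelled libraries alone stood beside it. The numbers pair libraries within a label by the correlations of their deviations (0.645, 0.395 and 0.482), not by the labels, so a fit with number as a block was run. Alternatives were DESeq2 1.42.0, limma-voom 3.58.1, other scalings and filters, a log2 fold threshold of 1 and leaving out each library. Total-count scaling and leaving out the pair numbered 1 were added after the data were seen. Counting intervals (95%) and floors cover counting error only, since reads carry no molecular identifiers.

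Genes named are the 12 largest rises and falls among protein-coding called genes of at least 5 FPKM in the higher group without overlap, the most abundant and most changed called members of each list, and a fixed set; text names come from these unless said otherwise. Of the 206 such genes 201 were called, and those central to each list are printed; some withheld items are not reported here. Members, lists and tests were chosen with earlier results of these data known, and 3 lists were written after values were seen. Promoters came from RefSeq (GRCm38.p6), matched by symbol, Ensembl identifier or synonym. Figures were drawn with matplotlib 3.10.9.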

Additional observations from a re-analysis of the deposited data

How the results depend on the processing

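The 3904 calls became 5911 with a replicate block within label, 6209 with that block in the WT-labelled libraries alone and 1051 against a log2 fold change of 1. Leaving out 1 library at a time gave 2957 to 3367 calls, and the other alternatives stayed within 1.5 times the main count, among them DESeq2 (4445), limma-voom (3863), median of ratios scaling (3877) and the 6 WT-labelled libraries alone (4372). The difference between labels was called for 0 genes when any 1 library was left out (0 to 0) and also with the block, for 1 gene with DESeq2 and for 2 genes with no filter on low values. Of the 201 named genes called, 104 kept their call under every alternative and 0 of the 206 reversed. The call of 23 was lost with total-count scaling, of 22 to 35 when 1 library was left out, of 42 without the pair numbered 1 and of 1, Gapdh, with the block. Ifnar1 became called with the block, DESeq2 and no filter. The causes of these changes were not tested.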

Other observations

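Noncoding genes were also counted, untested as classes, against 17% higher and 15.2% lower over all tested genes. Of 222 tested long intergenic noncoding RNAs 49 were higher (22.1%) and 16 lower (7.21%), and of 187 genes annotated as antisense 47 (25.1%) and 6 (3.21%). The shares were under the background in both directions for 695 processed pseudogenes, of which 45 were higher (6.47%) and 11 lower (1.58%), for 104 miRNA genes, with 4 and 0, and for 90 small nucleolar RNA genes, with 1 and 3, in libraries made from polyA RNA that do not measure mature small RNAs. Without strand information reads of an antisense gene and its partner cannot be told apart, and pseudogene counts may belong to parent genes. Among genes in none of the lists, named here after their values were seen, Mir155hg, the host transcript of miR-155, rose from 15.5 to 91.5 FPKM (log2 fold change 2.54 ± 0.32), AW112010, a transcript known as interferon-inducible, from 82.4 to 725 FPKM (log2 fold change 3.11 ± 0.55), Fgl2, a secreted coagulant and immune regulator, from 41.6 to 508 FPKM (log2 fold change 3.59 ± 0.23), and Cd69, an early activation marker, from 7.28 to 128 FPKM (log2 fold change 4.12 ± 0.46). Tfrc, the transferrin receptor that imports iron, fell from 13.2 to 2.78 FPKM (log2 fold change -2.27 ± 0.36), and Aqp3, a water and glycerol channel, from 65.2 to 12.2 FPKM (log2 fold change -2.45 ± 0.80). Of the 404 genes that rose over 8-fold, 100 were in no list and had only a Gm or Rik name.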
